A study of Bos taurus with 22 samples.

Results

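ACTB (ENSBTAG00000026199) and GAPDH (ENSBTAG00000014731) were followed through RNA-sequencing libraries of 22 single cattle blastocysts. They are 2 of the 27607 genes in the count table. They were chosen as common normalizers and not by a rule on their values, but with earlier results of these data known. ACTB encodes beta-actin, a cytoplasmic actin that polymerizes into the filaments of the cell cortex and cytoskeleton. GAPDH encodes glyceraldehyde-3-phosphate dehydrogenase, an enzyme of glycolysis. A reference gene is used to divide out differences in input between samples, which works only as far as its own transcript is steady from sample to sample. In a blastocyst, the embryo stage with an outer trophectoderm around an inner cell mass, both genes serve basic functions of the cell, and the choice of reference matters because 1 embryo gives very little RNA.

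All embryos were produced in vitro from oocytes of slaughterhouse ovaries, carried no treatment, and were collected whole at the blastocyst stage. The labels place all 22 in 1 group, so the question is how the 2 genes vary between blastocysts, and no groups were compared. Libraries were made by oligo-dT priming, full-length cDNA amplification and tagmentation of a fixed mass of cDNA, so the counts do not carry the amount of RNA in an embryo. Each blastocyst is named by the number in its sample title. The table pairs none of its identifiers with a symbol, the reference table used here pairs 0 of them, and the tissue was therefore not checked against marker genes. For the same reason the names ACTB and GAPDH rest on the identifiers alone.

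The total count was between 16593231 and 23884228 in 21 blastocysts and 7999204 in blastocyst 6. Blastocyst 6 also stood apart in its profile. Of 9318 genes with a mean of at least 10 CPM (the count divided by the scaled library size, times 1000000), 23.2% were more than 1 log2 unit below the mean of the other 21 blastocysts, against at most 8.40% when any of those was compared with the rest in the same way. Results are therefore given with and without blastocyst 6. To scale a library size, its total was multiplied by a TMM factor from edgeR, and these factors lay between 0.948 and 1.07. Every one of the 231 pairs of libraries differed by more than sampling noise, with a chi-square of at least 28.8 for each degree of freedom.

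ACTB was among the most counted genes of the blastocyst. It had 5052 ± 834 CPM (SD, n = 22), with a lowest value of 2372 in blastocyst 6, a median of 5146 and a highest value of 6611 in blastocyst 18. Only 2 genes had a higher mean CPM. Within single blastocysts ACTB was the second most counted gene in 4, the third in 14 and lower in 4. In 3 of these last 4 (blastocysts 9, 13 and 15) it was at rank 4, and in blastocyst 6 it was at rank 18. It took 0.251% of the counts of blastocyst 6 (95% Clopper-Pearson interval of its CPM 2340 to 2405) and up to 0.630% of those of blastocyst 18. The gap below the other blastocysts was larger than counting error, since the next lowest value was 4153 in blastocyst 23 (interval 4127 to 4180). Such intervals hold counting error alone, as copies made in amplification were not told apart by molecular identifiers. The drop was not particular to ACTB. In blastocyst 6 its log2 CPM was 1.12 below its mean in the other 21 blastocysts. Of the 9318 genes with a mean of at least 10 CPM, 21.2% were further below theirs.

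GAPDH had 702 ± 132 CPM (SD, n = 22) and was at rank 155 by mean CPM. Its lowest value was 498 in blastocyst 23, its median 676 and its highest 1009 in blastocyst 3. Its rank within a blastocyst ran from 81, in blastocysts 1 and 3, to 233 in blastocyst 23. Blastocysts 1 (975 CPM), 3 and 7 (877 CPM) were the highest, and the other 19 were between 498 and 823 CPM. Blastocyst 6, with 596 CPM for GAPDH (95% Clopper-Pearson interval 580 to 613), was inside the range of the others, unlike for ACTB. Each blastocyst was sequenced whole, so fewer cells of a type that expresses a gene and less of its RNA per cell cannot be told apart.

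**Figure D1:**
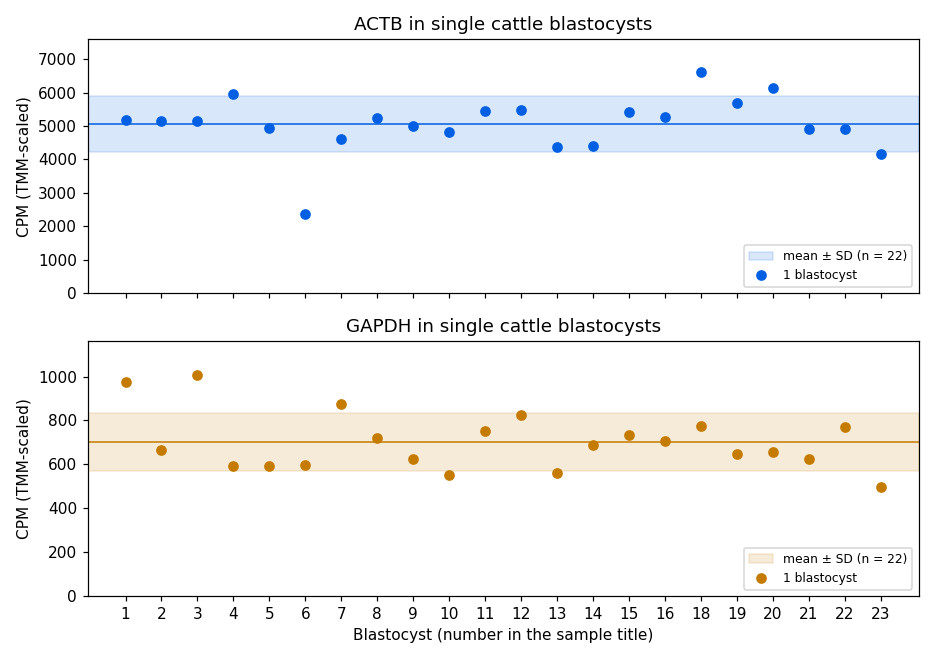
CPM of ACTB (top) and GAPDH (bottom) in each of the 22 blastocysts, from TMM-scaled library sizes, with both vertical axes starting at 0. Points are single blastocysts, and the line and band are the mean ± SD (n = 22). ACTB is at 2372 CPM in blastocyst 6 and between 4153 and 6611 in the other 21, while the GAPDH points run from 498 to 1009 CPM with no blastocyst set apart.

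The spread of the 2 genes was described by the SD of log2 CPM between blastocysts. For ACTB this SD was 0.287 (95% chi-square interval 0.221 to 0.410), and for GAPDH it was 0.261 (interval 0.200 to 0.372). A change of 1 SD thus corresponded to 1.22-fold for ACTB and 1.2-fold for GAPDH. Counting error alone gave an SD of 0.0050 for ACTB and 0.013 for GAPDH, so almost all of the spread was beyond counting error. The SDs of the 2 genes differed by 0.026 (ACTB minus GAPDH), which a two-sided permutation test that swapped the genes within blastocysts did not separate from 0 (p = 0.950, n = 22).

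The order of the 2 SDs turned with blastocyst 6. Without it, ACTB had 5180 ± 595 CPM (SD, n = 21) and its SD of log2 CPM was 0.164 (interval 0.125 to 0.236). GAPDH had 707 ± 133 CPM (SD, n = 21) and an SD of 0.263 (interval 0.201 to 0.379). The difference of the SDs was then -0.099, again short of the threshold in the permutation test (p = 0.0574, n = 21). With the median absolute deviation, a measure of spread that 1 extreme library moves little, the spread over all 22 blastocysts was 0.126 for ACTB and 0.272 for GAPDH (difference -0.146, permutation p = 0.0345), and without blastocyst 6 the difference was -0.117 (permutation p = 0.128).

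The same can be read from pairs of blastocysts. Among all 231 pairs, ACTB CPM differed by more than 2-fold in 17 and by more than 1.5-fold in 24. In the 210 pairs without blastocyst 6 these numbers were 0 and 3. GAPDH CPM differed by more than 2-fold in 1 pair, blastocysts 3 and 23, and by more than 1.5-fold in 27 of the 231 pairs and 25 of the 210. From lowest to highest, ACTB spanned 2.79-fold over 22 blastocysts and 1.59-fold over the 21, and GAPDH spanned 2.03-fold in both.

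Genes of similar mean CPM gave the background for these spreads. For GAPDH these were the 100 genes above and the 100 below it, with means from 505 to 1216 CPM. Their median SD of log2 CPM was 0.305 (quartiles 0.223 and 0.444), and 38.0% of them had a smaller SD than GAPDH. Only 2 genes lie above ACTB, so its background was 102 genes with means from 877 to 12134 CPM, whose median SD was 0.304 (quartiles 0.229 and 0.410). Of these, 47.1% had a smaller SD than ACTB. With all 22 blastocysts, both genes were thus near the middle of these backgrounds, although that of ACTB lies almost wholly below its level. Only 4 genes were within 1.5 times the mean CPM of ACTB, and 3 of these had a smaller SD than ACTB.

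Leaving out blastocyst 6 moved the 2 genes in opposite directions within their backgrounds. The share of similar genes with a smaller SD fell to 5.88% for ACTB (6 of 102) and rose to 69.0% for GAPDH (138 of 200). The median SD of the backgrounds was then 0.224 for ACTB and 0.222 for GAPDH. Over all 9318 genes with a mean of at least 10 CPM, 26.3% had a smaller SD than ACTB and 18.8% a smaller SD than GAPDH. Without blastocyst 6 these shares were 3.0% and 33.0%. The biological coefficient of variation that edgeR estimates for each gene models the counting error, and is given here only with blastocyst 6 included. This coefficient was 0.198 for ACTB and 0.197 for GAPDH, against fitted values of 0.255 and 0.259 for genes of their abundance. The medians of their backgrounds were below these fitted values, at 0.212 for ACTB and 0.217 for GAPDH. Of the similar genes, 39.2% had a smaller coefficient than ACTB and 39% a smaller one than GAPDH.

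**Figure D2:**
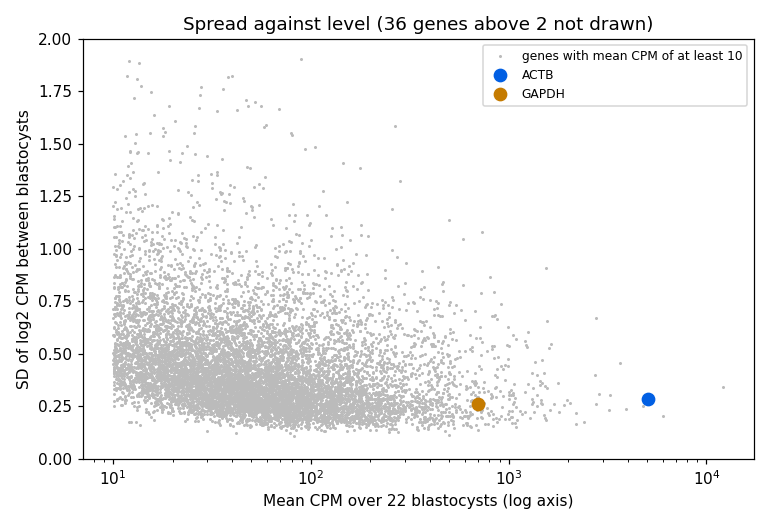
SD of log2 CPM between the 22 blastocysts (vertical axis) against mean CPM (horizontal log axis) for the genes with a mean of at least 10 CPM. Each grey point is 1 gene, and the large points are ACTB (5052 CPM, SD 0.287) and GAPDH (702 CPM, SD 0.261), both within the cloud of genes at their level.

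Both backgrounds held genes with a smaller SD. The 2 with the smallest SD in each were picked on these same libraries, so the values are a description. Near GAPDH, ENSBTAG00000016846 had 698 ± 65.0 CPM (SD, n = 22) with an SD of log2 CPM of 0.138. Its values ran from 539 to 810 CPM (median 695), and blastocyst 6 hardly mattered for it, since the SD without this blastocyst was 0.140. The next was ENSBTAG00000014648, with 532 ± 53.6 CPM and an SD of 0.146. In the background of ACTB, ENSBTAG00000015991 had 1085 ± 114 CPM and an SD of 0.149, and ENSBTAG00000046358 had 2203 ± 251 CPM and an SD of 0.166. The last value was close to that of ACTB without blastocyst 6, and both of these genes had lower means than ACTB. Nearer to the level of ACTB, 5 of the 10 genes within 2 times its mean CPM had a smaller SD than ACTB, and 0 of 10 did without blastocyst 6.

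The ratio of the ACTB count to the GAPDH count needs no library size. ACTB had more counts than GAPDH in 22 of 22 blastocysts, with a mean ratio of 7.36 ± 1.49 (SD, n = 22) and a median of 7.60. This is a ratio of fragments and not of transcripts, because gene lengths of the build were not used here and a longer transcript yields more fragments. The lowest ratio was 3.98 in blastocyst 6 (95% counting interval 3.86 to 4.10), followed by 5.11 in blastocyst 3, 5.25 in blastocyst 7 and 5.31 in blastocyst 1. The highest was 10.1 in blastocyst 4 (interval 9.87 to 10.2), followed by 9.33 in blastocyst 20. The low ratios came from different genes: blastocyst 6 had the lowest ACTB CPM with a GAPDH CPM inside the range of the others, whereas blastocysts 1, 3 and 7 had the 3 highest GAPDH CPM with ACTB between 4602 and 5174 CPM.

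**Figure D3:**
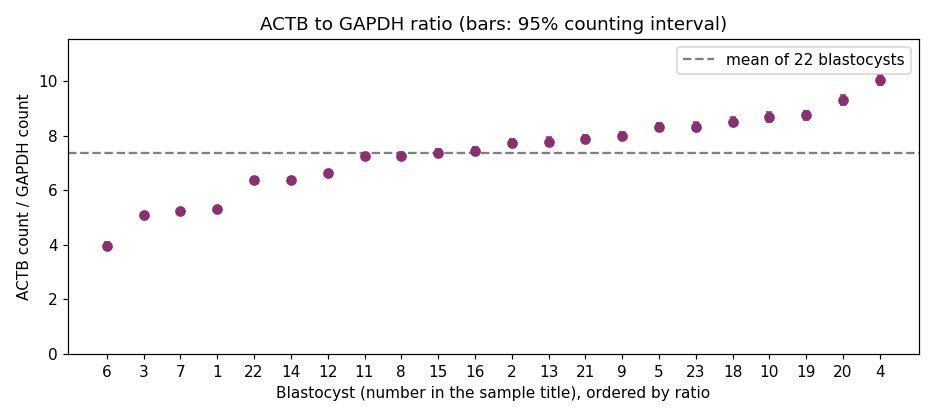
ACTB count divided by GAPDH count in each of the 22 blastocysts, ordered by the ratio, with an axis from 0. Bars are 95% counting intervals, mostly smaller than the points, and the dashed line is the mean of 7.36. The ratio climbs from 3.98 in blastocyst 6 through a step of 3 blastocysts between 5.11 and 5.31 to 10.1 in blastocyst 4.

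On the log2 scale the ratio had an SD of 0.323 (interval 0.249 to 0.462), against a counting SD of 0.014, and without blastocyst 6 an SD of 0.267 (interval 0.205 to 0.386). The ratio differed by more than 1.5-fold in 49 of 231 pairs of blastocysts and by more than 2-fold in 8. Without blastocyst 6 these numbers were 31 and 0 of 210 pairs. When each of the 200 genes nearest to GAPDH took its place beside ACTB, 41.0% of them gave a smaller SD of the log2 ratio (median 0.355), and 65.5% did so without blastocyst 6 (median 0.235). When each of the 102 genes near ACTB took its place beside GAPDH, 18.6% gave a smaller SD (median 0.374), and 6.86% did so without blastocyst 6 (median 0.328).

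ACTB and GAPDH did not show a correlation past the threshold. Across the 22 blastocysts their log2 CPM had a Pearson's r of 0.305 (permutation p = 0.171, BH value 0.206) and a Spearman's rho of 0.370 (permutation p = 0.0914, BH value 0.183). BH values are those adjusted by Benjamini-Hochberg over the 6 relations computed here, with r and rho adjusted apart. Without the 2 blastocysts farthest from the median of ACTB, 6 and 18, r was 0.250 (permutation p = 0.288, n = 20). CPM of any 2 genes share the library size as divisor, so the values are not fully independent.

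**Figure D4:**
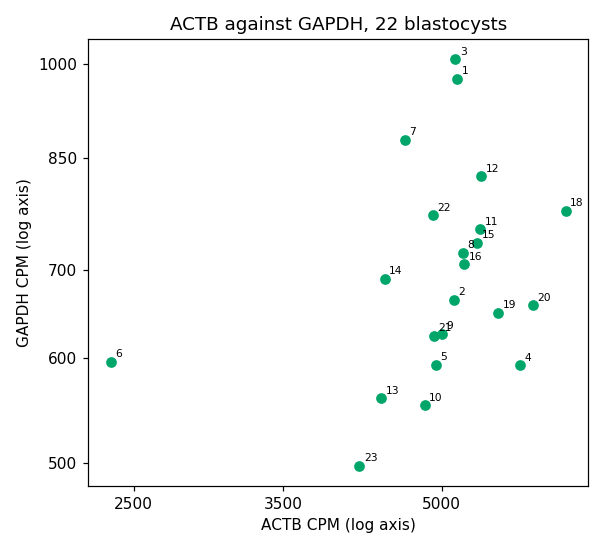
CPM of GAPDH (vertical log axis) against CPM of ACTB (horizontal log axis), each point a blastocyst labelled with its number (n = 22, Pearson's r of log2 CPM 0.305). Blastocyst 6 lies alone at the left at 2372 CPM of ACTB, and blastocysts 1, 3 and 7 lie at the top, at 877 CPM of GAPDH or more, with ACTB between 4602 and 5174 CPM.

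Depth was the technical measure in the files. CPM is divided by the scaled total, so the total enters both sides of its relations with CPM. This coupling can pull r and rho down, and the permutations take no account of it. Its size was not tested. For ACTB, log2 CPM against the log2 total count had r = 0.608 (permutation p = 0.0454, BH value 0.0681, n = 22) but rho = -0.317 (permutation p = 0.152, BH value 0.229). Without blastocysts 6 and 7, the 2 farthest from the median total, r was -0.489 (permutation p = 0.0283, n = 20), and without blastocyst 6 alone it was -0.524 (permutation p = 0.0151, BH value 0.0909, n = 21). The sign of r for ACTB thus turned with blastocyst 6. For GAPDH, r was 0.079 (permutation p = 0.721, BH value 0.721) and rho was -0.214 (permutation p = 0.337, BH value 0.405), a relation not past the threshold. It had r = -0.185 without blastocyst 6 (permutation p = 0.427, n = 21), and without blastocysts 6 and 7 r = -0.409 (permutation p = 0.0733, n = 20) and rho = -0.463 (permutation p = 0.0403, n = 20). The log2 ratio had r = 0.475 with the log2 total (permutation p = 0.0376, BH value 0.0681) and rho = 0.068 (permutation p = 0.763, BH value 0.763), and r = 0.103 without those blastocysts (permutation p = 0.669, n = 20). The part of depth in the low ACTB of blastocyst 6 was not tested, since no other library had a total below 16593231.

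A normalizer for depth should have more counts where more of the library was sequenced. The log2 count of ACTB against the log2 scaled library size had r = 0.873 (permutation p = 0.00256, BH value 0.00768) and rho = 0.469 (permutation p = 0.0289, BH value 0.173). That of GAPDH had r = 0.761 (permutation p = 0.00235, BH value 0.00768) and rho = 0.405 (permutation p = 0.0625, BH value 0.183). The count of a gene is itself part of the total, so these permutation p-values do not tell a normalizer from another expressed gene. Both relations rested on blastocyst 6. Without it, r was 0.363 for ACTB (permutation p = 0.106, n = 21) and 0.367 for GAPDH (permutation p = 0.0991, n = 21). Without blastocysts 6 and 7, r was 0.274 for ACTB (permutation p = 0.242, n = 20) and 0.152 for GAPDH (permutation p = 0.524, n = 20). The remaining library sizes span a narrow range, which can lower r, and its part in these values was not tested. Whether other abundant genes do better on this measure was not tested.

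Used as the only scaling factor, the 2 genes moved the blastocysts by different amounts. Relative to the scaled library size, dividing by ACTB multiplied all other genes of blastocyst 6 by 2.09 and those of blastocyst 18 by 0.752, the extremes, and 20 of 22 factors were within 1.3-fold of 1. Dividing by GAPDH gave factors from 0.685 in blastocyst 3 to 1.39 in blastocyst 23, with 19 of 22 within 1.3-fold of 1. In 7 blastocysts the 2 factors lay on opposite sides of 1. They differed by more than 1.3-fold in 5 blastocysts and most in blastocyst 6, by 1.81-fold. For the geometric mean of both genes the factors ran from 0.812 in blastocyst 3 to 1.56 in blastocyst 6, and its SD of log2 CPM was 0.221 (interval 0.170 to 0.316, n = 22).

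Scaling by either gene left the other genes with more spread than scaling by library size. The TMM factors were computed from the counts of these same libraries, so this comparison favours the library size and gives no independent standard. Over 9316 other genes with a mean of at least 10 CPM, the median SD of log2 values was 0.383 with TMM-scaled library sizes. It was 0.456 when counts were divided by ACTB, 0.469 when divided by GAPDH and 0.433 when divided by their geometric mean. The SD of a gene was larger under ACTB than under the library size for 70.7% of the genes, under GAPDH for 86.8% and under the geometric mean for 68.9%. Without blastocyst 6 the medians were 0.313 for library sizes, 0.354 for ACTB, 0.419 for GAPDH and 0.364 for the geometric mean, so that ACTB alone then gave less spread than both genes together.

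All 2365 genes with a mean of at least 100 CPM were put through the same procedure, each as the only scaling factor. The median SD that they left in the 9318 genes had a median of 0.490 (quartiles 0.448 and 0.581) and was lowest at 0.398. ACTB was at place 732 from the lowest and GAPDH at place 924. The geometric mean of both would be at place 335. None of the 2365 single genes reached the 0.383 of the library size, but TMM factors pool many genes of these same libraries. A single gene as divisor also brings its own spread into every other gene, so this order is no independent test. Without blastocyst 6, ACTB was at place 260 and GAPDH at place 1488, with a median over the 2365 genes of 0.397. The 4 genes named above for their small SD on these same libraries were at places 10 (ENSBTAG00000014648), 19 (ENSBTAG00000016846), 69 (ENSBTAG00000015991) and 196 (ENSBTAG00000046358) with all 22 blastocysts.

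**Figure D5:**
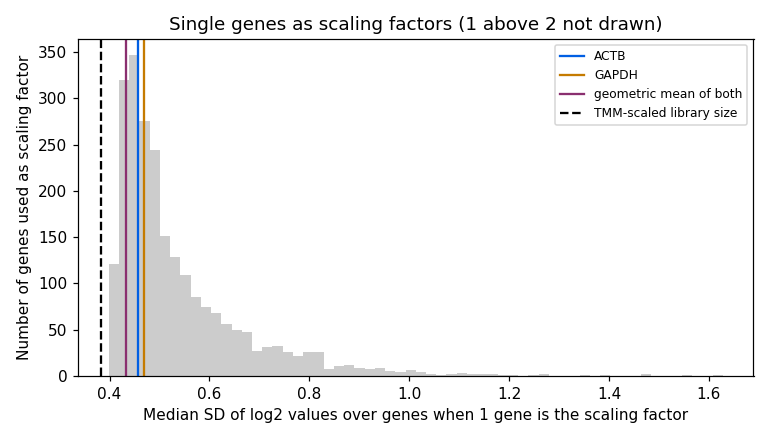
Number of genes (vertical axis) by the median SD of log2 values left in 9318 genes when 1 gene is the only scaling factor (horizontal axis), for the 2365 genes with a mean of at least 100 CPM over 22 blastocysts. Vertical lines mark ACTB (0.456), GAPDH (0.469), the geometric mean of both (0.433) and the TMM-scaled library size (dashed, 0.383), which lies to the left of every single gene. The TMM factors were computed from these same libraries.

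The genes most like each of the 2 in pattern were found by Pearson's r of log2 CPM over the 22 blastocysts, among genes with a mean of at least 10 CPM. For ACTB these were ENSBTAG00000001022 (r = 0.948, mean 296 CPM) and ENSBTAG00000002746 (r = 0.934, mean 254 CPM). Both relations were weaker without blastocyst 6, at 0.846 and 0.775. For GAPDH they were ENSBTAG00000012902 (r = 0.776, mean 81.3 CPM) and ENSBTAG00000002827 (r = 0.628, mean 173 CPM), at 0.769 and 0.614 without blastocyst 6. Over all 9317 other genes the median r was 0.056 with ACTB and 0.014 with GAPDH. GAPDH was at place 3172 among the genes ordered by r with ACTB, and ACTB at place 772 among those ordered by r with GAPDH.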

How the data were processed

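The authors deposited raw fragment counts for 27607 genes in 22 blastocysts, without normalization. By their methods, reads were aligned with HISAT2 (1 alignment kept per read) to the ARS-UCD1.2 assembly plus chromosome Y, filtered with samtools, cleared of duplicates with biobambam and counted on exons without regard to strand. Because only 1 alignment was kept, reads that fit both a gene and a near-identical copy, such as another actin gene or a processed pseudogene, could be counted at either place, so the counts of ACTB and GAPDH are uncertain to that extent. Removal of duplicates by position can lower the counts of very abundant genes. The size of either effect was not tested. Genes of the chromosome Y annotation and inferred sexes were not used here.

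CPM were count over total times TMM factor (edgeR 4.0.16, R 4.3.3). SDs use log2 CPM, with a prior count of 0.5 for genes other than ACTB and GAPDH. Permutation tests were two-sided with 100000 resamples (Python 3.11.15, numpy 2.4.6, scipy 1.17.1). Depth and counting intervals stand beside the values. Which blastocysts shared a dam or sire is not given in the sources used here. The permutation p-values treat the blastocysts as independent, which would not hold for blastocysts with shared parents. Named genes were ACTB, GAPDH, for each the 2 genes with the highest r, and the 2 with the smallest SD among its neighbours in mean CPM. Planned lists of reference, glycolysis, actin and cell type marker genes were not used, because 0 identifiers were paired with symbols. The spread statistics were tested on simulated data. Alternatives used DESeq2 1.42.0 size factors, upper quartile scaling, totals alone, a prior of 1 CPM, other measures of spread, other windows and filters, and blastocysts left out in turn. The 2 genes, lists and tests were chosen with earlier results of these data known.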

Additional observations from a re-analysis of the deposited data

How the results depend on the processing

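Of all settings, leaving out blastocyst 6 changed most. Leaving out each blastocyst in turn gave an SD of log2 CPM of 0.164 to 0.294 for ACTB, and 5.88% to 51.0% of similar genes with a smaller spread than ACTB, both lowest without blastocyst 6. For GAPDH that share was 30%, without blastocyst 3, to 69.0%, without blastocyst 6. Pearson's r with the log2 total was -0.524 to 0.667 for ACTB and -0.140 to 0.616 for the log2 ratio, negative only without blastocyst 6. Between log2 count and log2 scaled library size it was 0.363 to 0.899 for ACTB and 0.367 to 0.810 for GAPDH, past the threshold except without blastocyst 6. With the median absolute deviation, the spread of ACTB was 0.126, the difference of spreads -0.146 (permutation p = 0.0345), and the shares of similar genes with a smaller spread 1.96% for ACTB and 69.0% for GAPDH. The share for ACTB was 21.6% under upper quartile scaling, 28.4% with the coefficient of variation and 75% among the 4 genes within 1.5 times its mean CPM, of which 0 had a smaller spread without blastocyst 6. In these cases the cause was not tested. Apart from the single genes named for likeness or small SD, 591 values under the alternatives were within the limits set for them. Of the others, 10 moved outside the limits, 2 were reversed, 2 were weaker and 1 was stronger. A value within its limits could still change sign, as the difference of spreads did. ACTB was at rank 3 by mean CPM under the 3 other scalings and with each blastocyst left out. The difference of spreads was -0.099 to 0.058 with blastocysts left out in turn, short of the threshold each time, and also turned negative, short of the threshold, under upper quartile scaling (-0.030, permutation p = 0.734) and with the coefficient of variation (-0.032, permutation p = 0.702). Leaving out blastocysts in turn for the shares of similar genes and for scaling by 1 gene, the procedure with every abundant gene as scaling factor and the ratios to neighbouring genes were chosen after seeing the data. No paired comparison of groups was possible because all blastocysts are in 1 group, and the only pairing was that of the 2 genes within a blastocyst. Counting error was small for both genes, since the lowest count was 5055, for GAPDH in blastocyst 6. This concerns counting error only, and the part of depth in the low ACTB of blastocyst 6 was not tested.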

Other observations

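Of the 100 genes with the highest r with ACTB over the 22 blastocysts, 25 were among the 100 highest without blastocyst 6. For GAPDH this number was 53. The r of genes with ACTB had a 95th percentile of 0.810 with all blastocysts and 0.495 without blastocyst 6, and that of genes with GAPDH 0.352 and 0.382.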
